A study of Homo sapiens with 14 samples.

Results

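The gene expression of glucose-deprived KMT2D-KO cells was compared with that of glucose-deprived KMT2D-WT cells across the whole transcriptome. SCC23 is an established line of head and neck squamous cell carcinoma (HNSCC), and all cells of the comparison had been kept without glucose for 6 h (-Glc) before RNA was taken. KMT2D-KO cells were derived by transfection with a plasmid carrying Cas9, GFP and a guide against KMT2D, KMT2D-WT cells with the same plasmid carrying a guide against LacZ, and both were sorted for GFP. No isolation of single-cell clones is described, so a KMT2D-KO line may hold cells with different edits. The comparison used all libraries labelled -Glc, which are 7 of the 14 RNA-seq libraries of the series, 3 of KMT2D-WT and 4 of KMT2D-KO cells. Experiment 1 holds 1 KMT2D-WT library and 1 library each of the lines KO1 and KO2, and experiment 2 holds 2 KMT2D-WT libraries, WT1 and WT2, and 1 library labelled KO1 and 1 labelled KO2. Libraries of either line were pooled as 1 group, with the experiment fitted as a covariate. Nothing in the labels says that libraries of one experiment came from separate cultures, so that p-values measure the spread between these libraries, which may be technical.

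KMT2D is a histone methyltransferase that places monomethylation on lysine 4 of histone H3 at enhancers, within a complex that also holds the demethylase KDM6A, and it is often inactivated in squamous cancers. Enhancers marked in this way help to set the genes particular to a cell type and the genes that respond to signals. When glucose is withdrawn, cells lose their main source of glycolytic energy, of pentose sugars and of protein glycosylation, and they are known to answer with the integrated stress response, in which the transcription factor ATF4 raises genes of amino acid supply.

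Before the groups were compared, the libraries were examined. Total counts were 21344923 to 31074996 in KMT2D-WT and 18096785 to 26936339 in KMT2D-KO libraries. The 10 largest genes took 4.53% to 4.98% of the counts in KMT2D-WT and 7.04% to 7.42% in KMT2D-KO libraries, and genes of the mitochondrial genome took 2.64% to 2.77% and 3.82% to 4.83%. Within experiment 2, the 2 KMT2D-WT libraries were close to each other, with a chi-square of 1.73 per gene, and so were the 2 KMT2D-KO libraries at 1.78, whereas the other pairs of libraries within a genotype gave 75.3 or more. A value of 1 would be sampling noise alone, so the libraries of each close pair differed by more than that noise, but far less than other pairs. This excess does not show that they are separate replicates. They were kept apart in the main fit, whose standard errors and adjusted p-values may therefore be too small. Counts of genes are given also with each pair summed. Over 18 genes that separated KO1 from KO2 by more than 3 on the log2 scale in the KMT2D-KO libraries kept in glucose, the median distance of the experiment 2 library labelled KO1 was 3.64 to KO1 and 0.317 to KO2, and for the library labelled KO2 it was 3.67 and 0.326. Thus, the library labelled KO1 in experiment 2 lay with KO2 by these genes, and only the experiment 1 library of KO1 lay with KO1 (0.493, against 3.87 to KO2). The KMT2D-WT libraries were also far from KO1 by these genes (3.61 to 3.75) and nearer to KO2 (1.07 to 1.34). The count tables of both KMT2D-KO libraries of experiment 2 name KO2 in their headers. Results are therefore named by library. In all values below, KMT2D-WT libraries are given in the order experiment 1, WT1 and WT2 of experiment 2, and KMT2D-KO libraries in the order KO1 and KO2 of experiment 1, then those labelled KO1 and KO2 of experiment 2. Levels are TMM-normalised counts scaled to library size (CPM), which do not take account of gene length, and fold changes are fitted log2 values of KMT2D-KO minus KMT2D-WT with their standard error.

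The targeted gene was measured first. KMT2D (chr12:49018978-49060794, GRCh38) was measured at 226, 226 and 225 CPM in KMT2D-WT and 19.8, 179, 143 and 135 CPM in KMT2D-KO libraries. All 4 KMT2D-KO libraries lay below all KMT2D-WT libraries, with the KO1 library of experiment 1 far below the others. The log2 fold change was -0.90 ± 0.60, which did not pass the test (edgeR, adjusted p = 0.247). Leaving that library out gave -0.58 (adjusted p = 2.44e-08), and in cells kept in glucose it was -0.03. The counts cover the whole transcript and do not read the guide's cut site. The squamous identity was also checked. Of 24 markers of squamous lineage and basal cells, 23 were expressed, and their summed level was 6455 to 8428 CPM over the 7 libraries. This list also holds genes of epithelia in general, such as CDH1 and EPCAM, and the sum does not give the level of each marker. The lineage factor SOX2 had only 1.33 to 1.96 CPM in KMT2D-WT libraries. Fibroblast markers summed to 3.17 to 5.32 CPM in KMT2D-WT and 6.97 to 14.02 CPM in KMT2D-KO libraries, endothelial markers to 1.72 to 3.64 and 4.97 to 8.32 CPM, and immune markers to 0.827 to 1.63 and 0.317 to 1.19 CPM. Among each of these 3 lists of 10 markers, 4 to 8 immune, 4 to 7 fibroblast and 2 to 6 endothelial markers had no count in a given library.

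Of 16782 tested genes, 4179 (24.9%) were lower and 4342 (25.9%) higher in KMT2D-KO than in KMT2D-WT libraries. Thus, 8521 (50.8%) were called at an adjusted p under 0.05 by edgeR's quasi-likelihood test. Of the called genes, 8516 changed in the same direction in both experiments. They were called from these same libraries, so this agreement follows largely from the calling and is not a replication. A change of 2-fold or more was seen in 1909 of the genes called lower and in 1352 of those called higher. The number of calls depended strongly on how the close pairs were treated. With each pair of experiment 2 summed into 1 library, 1287 genes (7.67%) were lower and 1490 (8.88%) higher, and every one of them had been called in the same direction with 7 libraries. Leaving out the KO1 library of experiment 1 raised the calls to 6312 lower and 6136 higher. Groups did not overlap for 3203 genes (19.1%), for which all KMT2D-KO libraries lay below all KMT2D-WT libraries, and for 2707 genes (16.1%), for which they lay above. The median log2 fold change over all tested genes was 0.003.

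The 10 genes with the largest decrease were taken from those called in both fits with at least 5 CPM on average and no overlap. DSCAM (chr21:40010999-40847158), a cell adhesion molecule of the immunoglobulin superfamily best known from neurons, had 13.4, 12.4 and 13.1 CPM in KMT2D-WT libraries and no count in any KMT2D-KO library. Set against a floor of 3 counts over the 4 libraries, it was at least 356-fold lower. ADAM12 (chr10:126012381-126388455), a membrane metalloprotease, had 13.7, 13.7 and 13.99 CPM in KMT2D-WT and 0.0626, 0, 0.0892 and 0 CPM in KMT2D-KO libraries. From the 3 reads counted in KMT2D-KO libraries, the ratio was 382, with an exact 95% counting interval from 130.2 to 1853. Both genes were thus near the limit of detection in every KMT2D-KO library and between 12.4 and 13.99 CPM in every KMT2D-WT library.

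PRSS8, a membrane-anchored serine protease of epithelia, had 14.9, 9.85 and 9.13 CPM in KMT2D-WT and 0.376, 0.688, 0.178 and 0.352 CPM in KMT2D-KO libraries (log2 -4.94 ± 0.24). SLCO4A1, an organic anion transporter, fell by 4.56 on the log2 scale, with 10.1 to 13.1 CPM in KMT2D-WT and 0.212 to 0.626 CPM in KMT2D-KO libraries. CCBE1, a secreted protein needed for lymphatic growth, fell by 4.28, with 12.5 to 14.6 against 0.529 to 0.814 CPM. In each of these genes, the lowest KMT2D-WT library was more than 10 times as high as the highest KMT2D-KO library. AADAC, an esterase of the endoplasmic reticulum (log2 -3.86 ± 0.18), FKBP10, a collagen chaperone (-3.82 ± 0.25), and COCH, an extracellular matrix protein (-3.36 ± 0.48), were likewise lower. COCH varied widely between KMT2D-KO libraries, with 0.0626, 1.38, 3.39 and 3.21 CPM. CELSR2, an atypical cadherin of planar cell polarity, had 68.7, 63.3 and 63.6 CPM in KMT2D-WT and 6.76, 6.72, 4.95 and 5.48 CPM in KMT2D-KO libraries, with the smallest standard error of the 10 decreases (log2 -3.50 ± 0.09; edgeR, adjusted p = 1.96e-05). The receptor NOTCH3 had 24.6, 20.3 and 17.6 CPM in KMT2D-WT and 3.44, 1.75, 1.65 and 1.49 CPM in KMT2D-KO libraries (log2 -3.45 ± 0.22), with the KO1 library of experiment 1 above the other 3.

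The genes with the largest increase were silent or nearly silent in KMT2D-WT cells. LPCAT2 (chr16:55509072-55586666), an enzyme that makes platelet-activating factor and remodels phospholipids, had no count in any KMT2D-WT library and 7.26, 7.35, 13.1 and 12.1 CPM in KMT2D-KO libraries. It was at least 301.3-fold higher against a floor of 3 counts over the 3 libraries. GALNT14 (chr2:30910467-31155202), which starts mucin-type O-glycosylation, had 0.0857, 0 and 0.103 CPM in KMT2D-WT and 58.8, 48.3, 39.7 and 39.2 CPM in KMT2D-KO libraries (log2 9.43 ± 0.33). This gene reached the highest level of the 10, and its KMT2D-KO libraries ranged from 39.2 to 58.8 CPM. PTN, a secreted growth factor that binds heparin, had 1 read over the 3 KMT2D-WT libraries and 10.2, 15.2, 16.2 and 15.3 CPM in KMT2D-KO libraries, a ratio of 1268 with an exact counting interval from 227 to 50108. ICA1, a protein of vesicle trafficking, had a ratio of 1012 (181 to 40020.0), again against 1 read, and 9.67 to 16.2 CPM in KMT2D-KO libraries. MAL2, a protein of transcytosis in polarised epithelia, had a ratio of 809 (145 to 32008) and 19.3, 3.92, 7.22 and 8.80 CPM, with the KO1 library of experiment 1 highest. GJA1, the gap junction protein connexin 43, had 0, 0.0288 and 0.103 CPM in KMT2D-WT and 10.5, 7.99, 11.9 and 11.7 CPM in KMT2D-KO libraries (log2 7.78 ± 0.39). The kinase gene WNK2 had 6.32 to 10.7 CPM in KMT2D-KO and 0.0689 to 0.0864 CPM in KMT2D-WT libraries. LCP1, the actin-bundling protein L-plastin of blood cells and many carcinomas, had 16.4 to 29.9 against 0.172 to 0.230 CPM. SAMD5 had 4.02 to 12.9 against 0.0429 to 0.259 CPM, and the transcript AC037198.1 had 19.97 to 32.9 against 0.207 to 0.643 CPM. Over all tested genes, 17 had no count in any KMT2D-WT library and a mean of at least 1 CPM in KMT2D-KO cells, and 2 genes, DSCAM and C5orf63, showed the reverse. C5orf63 was named after its values were seen.

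**Figure D1:**
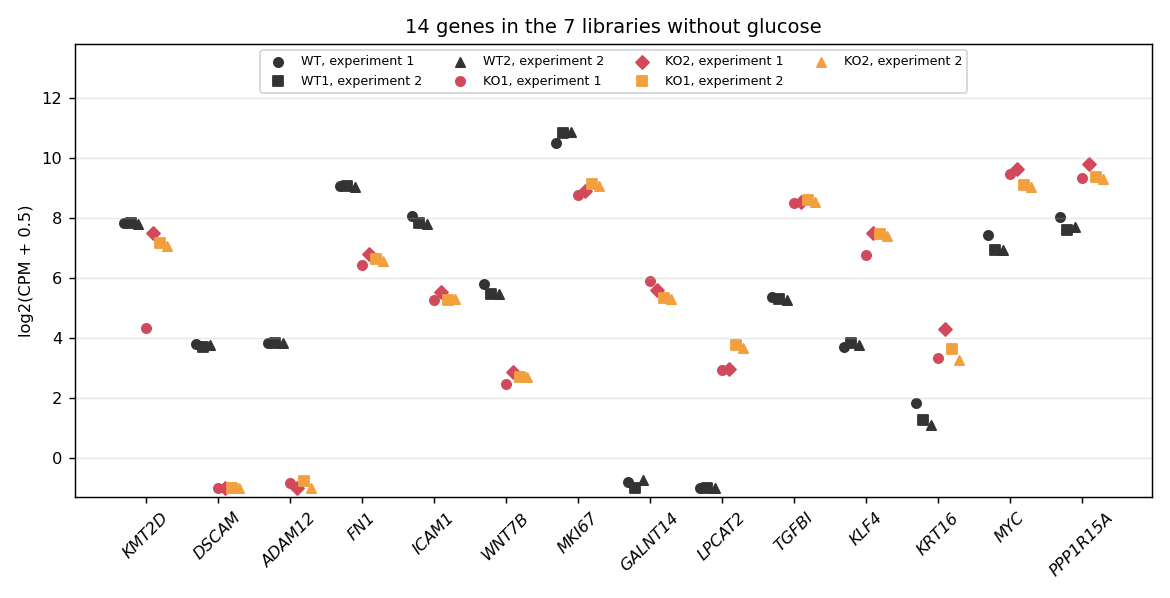
Levels of 14 genes in the 7 libraries without glucose, as log2(CPM + 0.5), with black symbols for KMT2D-WT, red for KMT2D-KO of experiment 1 and orange for KMT2D-KO of experiment 2. The 4 KMT2D-KO libraries lie on one side of the 3 KMT2D-WT libraries for every gene shown, and KMT2D has 1 KMT2D-KO library (KO1, experiment 1) far below the other 3.

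The 5 most abundant genes that fell by at least 2-fold with no overlap were MKI67, DDX17, AHNAK, SUPT16H and ITGA2. MKI67 (chr10:128096659-128126423), the marker protein of cycling cells, had 1448, 1832 and 1850.2 CPM in KMT2D-WT and 431, 484, 562 and 531 CPM in KMT2D-KO libraries (log2 -1.72 ± 0.06; adjusted p = 3.11e-05). SUPT16H, a subunit of the histone chaperone FACT, had 376, 514 and 524 and 147, 131, 183 and 179 CPM (log2 -1.49 ± 0.07), and DDX17, an RNA helicase, had 932 to 1016 and 367 to 429 CPM (log2 -1.23 ± 0.07). The 2 genotypes were well apart in all 3 genes. ITGA2, the collagen-binding integrin alpha 2, had 323, 576 and 554 CPM in KMT2D-WT and 79.2, 115, 189 and 182 CPM in KMT2D-KO libraries (log2 -1.66 ± 0.13). The scaffold gene AHNAK had 636, 802 and 773 and 112, 298, 309 and 307 CPM, and its change of -1.47 ± 0.29 missed the threshold with the close pairs summed (adjusted p = 0.0669) and with experiment 1's KMT2D-WT library left out (0.0569). The most abundant genes that rose by at least 2-fold were the mitochondrial MT-CO1 and MT-RNR2, the cytoskeletal ACTG1 and 2 genes of the ribosome. MT-RNR2, the large ribosomal RNA of mitochondria, had 1329.9, 1761 and 1737 CPM in KMT2D-WT and 5585, 9161, 12454 and 12544 CPM in KMT2D-KO libraries (log2 2.69 ± 0.18). ACTG1, cytoplasmic gamma actin, had 4378, 3175 and 3189 and 7626, 11185, 8182 and 8106 CPM (log2 1.25 ± 0.14).

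Lists of genes for 63 pathways, complexes and cell types were then described by the number of members called in each direction, to be read against the 24.9% lower and 25.9% higher over all genes. Numbers with the close pairs summed are to be read against 7.67% lower and 8.88% higher. Where no such number is given, a list is described by the fit of 7 libraries alone, whose adjusted p-values may be too small. A nearly uniform change was that of the cytosolic ribosomal proteins, which build the translating ribosome. Of 78 genes, 74 were higher and 0 lower, with a median log2 fold change of 0.91 against 0.003 over all genes, and 68 were higher also with the close pairs summed. RPL8 had 2408, 1556 and 1556 CPM in KMT2D-WT and 6847, 5708, 3611 and 3781 CPM in KMT2D-KO libraries (log2 1.30 ± 0.08). RPL13A had 715, 351 and 355 and 1675, 1463, 753 and 788 CPM (1.13 ± 0.07). In both, experiment 1 stood above experiment 2 in either genotype, and KMT2D-KO lay above KMT2D-WT within each experiment. The summed level of the list was 50445 CPM in KMT2D-WT of experiment 1 and 28457 and 28844 CPM in experiment 2, against 111202 and 90549 CPM in KMT2D-KO of experiment 1 and 50610.2 and 53739 CPM in experiment 2. Across experiments, therefore, 35 of the 78 genes had no overlap between genotypes, all with KMT2D-KO above KMT2D-WT, against 16.1% of all tested genes. RPL11 (log2 1.00 ± 0.06), RPL22 (1.56 ± 0.08) and RACK1, a scaffold protein of the small ribosomal subunit (1.47 ± 0.10), were among those higher. These genes have many near-identical pseudogenes, and reads may be split between the copies.

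Other lists of protein synthesis moved the same way. Of 97 ribosome biogenesis genes, 53 were higher and 13 lower (median 0.26). NOP16, a nucleolar protein, had 92.6, 65.4 and 67.0 CPM in KMT2D-WT and 258, 237, 170.1 and 171 CPM in KMT2D-KO libraries (log2 1.39 ± 0.07), POLR1D, a subunit of RNA polymerases I and III, rose by 1.06 ± 0.06, and NPM1, nucleophosmin, by 0.83 ± 0.06. Of 20 cytosolic aminoacyl-tRNA synthetases, 15 were higher and 1 lower (median 0.36), with TARS1, which charges threonine tRNA, at 297 to 381 CPM in KMT2D-WT and 557 to 778 CPM in KMT2D-KO libraries. Summing the close pairs left 4 of the 20 higher and 0 lower. Among 38 genes of the MYC network and its targets, 24 were higher and 4 lower (median 0.43). The transcription factor gene MYC itself had 171, 123 and 123 CPM in KMT2D-WT and 706, 791, 546 and 527 CPM in KMT2D-KO libraries, so that the lowest KMT2D-KO library was more than 3 times the highest KMT2D-WT library (log2 2.12 ± 0.07; edgeR, adjusted p = 2.76e-05). HSPD1, a mitochondrial chaperonin (1.07 ± 0.07), and MCM4, a subunit of the replicative helicase (0.93 ± 0.05), followed. Host genes of small nucleolar RNAs, whose spliced transcripts carry runs of pyrimidines at their start as ribosomal protein transcripts do, and nuclear RNAs were higher in 13 and lower in 3 of 22 genes, with ZFAS1 at 32.8 to 38.1 CPM in KMT2D-WT and 105 to 142 CPM in KMT2D-KO libraries and SNHG29 at 294 to 466 and 688 to 1111 CPM.

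Genes of mitochondrial respiration were higher in KMT2D-KO cells. Of 70 nuclear genes of oxidative phosphorylation, 52 were higher and 1 lower, with a median log2 fold change of 0.51, and of 75 mitochondrial ribosomal proteins, 53 were higher and 1 lower (median 0.52). With the close pairs summed, 21 and 24 remained higher. CYC1, cytochrome c1 of complex III, had 235, 143 and 142 CPM in KMT2D-WT and 573, 563, 349 and 352 CPM in KMT2D-KO libraries (log2 1.29 ± 0.06). COX7B of complex IV had 84.3, 55.6 and 48.1 and 219, 201, 128 and 139 CPM (1.35 ± 0.08), and MRPS30 of the mitochondrial ribosome had 45.7, 62.3 and 61.7 and 130.5, 119, 159 and 163 CPM (1.41 ± 0.07). In all 3 genes, each KMT2D-KO library exceeded each KMT2D-WT library. Of the 13 protein-coding genes of the mitochondrial genome, 8 were higher and none lower, among them MT-ND4 of complex I (log2 0.99 ± 0.06) and MT-CO1 of complex IV (1.06 ± 0.09). These calls depended on the processing. Summing the close pairs left 4 higher, and an offset that removes the trend in exonic length gave 6 higher and 3 lower.

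Central carbon metabolism showed increases with named exceptions. Of 36 genes of the tricarboxylic acid cycle and pyruvate dehydrogenase, 22 were higher and 1 lower (median 0.32), and 8 and 0 with the close pairs summed. IDH3B, a subunit of NAD-dependent isocitrate dehydrogenase, had 105, 80.5 and 85.1 CPM in KMT2D-WT and 327, 286, 244 and 242 CPM in KMT2D-KO libraries (log2 1.55 ± 0.07), and OGDHL, a 2-oxoglutarate dehydrogenase, had 5.13 to 7.72 and 18.6 to 27.8 CPM (1.80 ± 0.16). Of 30 genes of the pentose phosphate pathway and nucleotide synthesis, 14 were higher and 5 lower, led by 3 enzymes of the pentose phosphate pathway. TKT, transketolase, had 358, 315 and 319.6 and 734, 759, 639.6 and 651 CPM (1.04 ± 0.05), TALDO1, transaldolase, rose by 0.99 ± 0.06, and PGD, 6-phosphogluconate dehydrogenase, by 0.90 ± 0.06. Of 27 glycolysis genes, 15 were higher, among them PGK1 (289 to 342 CPM in KMT2D-WT and 576 to 806 CPM in KMT2D-KO libraries), ENO1 (log2 0.68 ± 0.08) and LDHB (1.28 ± 0.12). Among the 4 lower genes was SLC16A3, the transporter that exports lactate, with 69.6, 52.1 and 50.7 CPM in KMT2D-WT and 32.0, 29.7, 24.6 and 24.3 CPM in KMT2D-KO libraries (-1.11 ± 0.07). The glucose transporter gene SLC2A1 was higher by 0.65 ± 0.08. Fatty acid oxidation genes were called in both directions (6 lower and 11 higher of 25). CPT1A, which carries fatty acids into mitochondria and limits the rate of their oxidation, had 94.7, 99.1 and 96.9 CPM in KMT2D-WT and 34.1, 37.2, 42.9 and 40.4 CPM in KMT2D-KO libraries and was thus lower in each (log2 -1.304 ± 0.07). Of 36 NRF2 targets and glutathione genes, 17 were higher, such as ALDH3A1 (2.73 to 3.73 against 19.3 to 37.0 CPM), and 4 lower. HMOX1, heme oxygenase 1, was one of the latter, at 81.4, 59.4 and 62.1 CPM in KMT2D-WT and 22.5, 14.6, 9.14 and 8.84 CPM in KMT2D-KO libraries (-2.51 ± 0.19). Hypoxia genes were near the background in number, 10 higher and 9 lower of 32, yet ADM, the vasodilator peptide adrenomedullin (1.82 ± 0.08), and NDRG1 (2.50 ± 0.21) rose strongly.

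**Figure D2:**
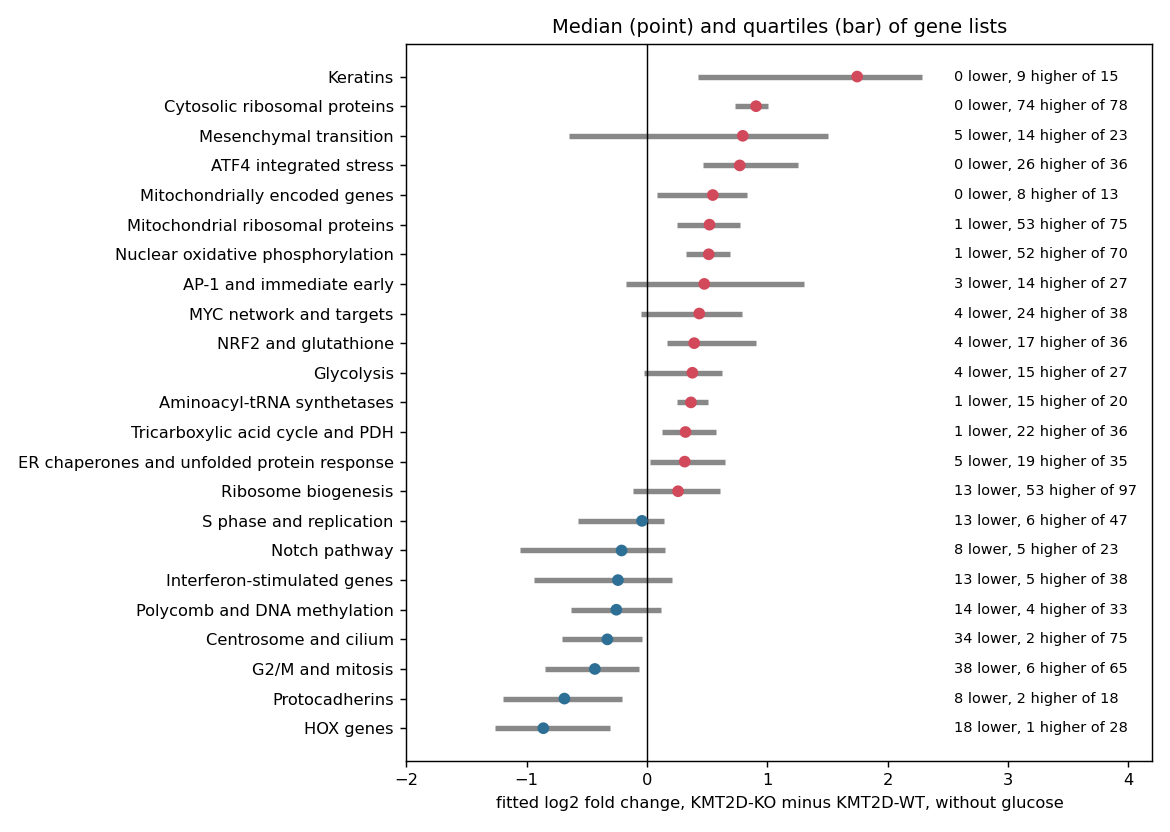
Median (point) and quartiles (bar) of the fitted log2 fold change over the tested members of 23 gene lists, with the number called lower and higher beside each. Medians run from 1.75 for keratins and 0.91 for cytosolic ribosomal proteins to -0.86 for HOX genes, and the median over all tested genes was 0.003.

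Genes of the integrated stress response, which ATF4 drives when amino acids or energy run short, were higher. Of 36 tested, 26 were higher and none lower (median 0.77), and 15 were higher with the close pairs summed. ATF4 had 371, 221 and 225 CPM in KMT2D-WT and 633, 635, 401 and 399.8 CPM in KMT2D-KO libraries (log2 0.81 ± 0.05). Its level was 1.7 to 1.8 times higher in KMT2D-KO cells within each experiment. SLC3A2, the heavy chain of several amino acid transporters, had 455, 276 and 280.3 and 1030.3, 1101, 651 and 666 CPM (1.24 ± 0.06), and EIF4EBP1, a repressor of translation initiation, had 55.4, 32.1 and 33.2 and 122, 138, 75.9 and 76.3 CPM (1.22 ± 0.07). PPP1R15A (GADD34), which restores translation by removing phosphate from eIF2 alpha, had 259.9, 196 and 207 and 649, 892, 658 and 629.9 CPM (1.63 ± 0.12; adjusted p = 0.000103). Each of these 3 genes was higher in every KMT2D-KO library than in any KMT2D-WT library. The stress factor ATF3 had 16.1, 14.6 and 14.9 CPM in KMT2D-WT and 66.6, 72.0, 61.6 and 59.5 CPM in KMT2D-KO libraries (2.06 ± 0.07), with KMT2D-KO libraries that agreed within 1.3-fold. SESN2 (1.15 ± 0.12) and DDIT4 (0.68 ± 0.06), which restrain mTOR complex 1, also rose. CHAC1, a glutathione-degrading target of ATF4, had 24.9, 18.3 and 18.5 and 50.8, 35.8, 22.4 and 20.9 CPM, and its value of 0.45 ± 0.17 did not pass the test (adjusted p = 0.0596). CHAC1 was named after its values were seen.

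Genes of DNA damage and growth arrest that respond to stress were among the strongest within the list of cyclins, CDK inhibitors and p53 targets, although the list as a whole (8 lower and 9 higher of 38) was near the background. GADD45A had 289, 276 and 281 CPM in KMT2D-WT and 1091, 866, 751 and 742 CPM in KMT2D-KO libraries (log2 1.55 ± 0.11), GADD45B rose by 1.37 ± 0.07 and the kinase gene PLK2 by 1.44 ± 0.06. All KMT2D-KO libraries exceeded all KMT2D-WT libraries for these genes. CCND1, cyclin D1, rose less (0.83 ± 0.06). Of 35 chaperones and sensors of the endoplasmic reticulum, 19 were higher and 5 lower (median 0.31, and 0.20 without the KO2 library of experiment 1). Summing the close pairs left 6 of them higher and 1 lower. CANX, the chaperone calnexin of glycoprotein folding, had 726, 1111 and 1140.3 and 1512, 1746, 2802 and 2806 CPM (1.26 ± 0.07), whereas ERN1, the stress sensor IRE1 alpha, had 32.8, 29.3 and 29.1 and 16.3, 19.7, 17.8 and 17.3 CPM and was lower (-0.79 ± 0.09).

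Promoters of lists that moved together were searched for the element best known for each, on both strands, from 250 bases before to 50 bases after the start, in 1 RefSeq promoter per gene (GRCh38.p14, 27305 promoters, matched by symbol to 10612 of the tested genes). The amino acid response element TGATGNAA, bound by ATF4, was found in 5 of 28 promoters of the ATF4 list and in 3.67% of all promoters. The endoplasmic reticulum stress element, CCAAT and CCACG with 9 bases between them, was found in 7 of 33 promoters of the endoplasmic reticulum list and in 0.0806% of all, the box CCAAT in 38 of 55 promoters of the G2/M list and in 35.7% of all, and the E-box CACGTG in 13 of 34 promoters of the MYC list and in 7.44% of all. Over the promoters of the 10612 tested genes, the shares were 1.69%, 0.132%, 36.8% and 9.87% in the same order. The lists were written from general knowledge, in part as known targets. A higher share of an element can follow from that choice and is no result about KMT2D-KO cells. A match of the long element contains a match of CCAAT. Whether members with a match moved more differed between lists. The median log2 fold change with and without a match was 0.47 and 0.81 in the ATF4 list, -0.54 and -0.62 in the G2/M list, 0.66 and 0.29 in the endoplasmic reticulum list, and 0.46 and 0.31 in the MYC list. The 160 bases before the start are shown for 4 genes whose promoter holds the element of their list, with the matched letters in capitals. They are ASNS, asparagine synthetase and a classic ATF4 target, CANX, and the mitosis genes MKI67 and ASPM, on the strand of the gene, at chr7:97872409-97872568 (-), chr5:179698769-179698928 (+), chr10:128126424-128126583 (-) and chr1:197146670-197146829 (-). On a strand opposite to the gene, CCAAT reads as ATTGG.
ASNS: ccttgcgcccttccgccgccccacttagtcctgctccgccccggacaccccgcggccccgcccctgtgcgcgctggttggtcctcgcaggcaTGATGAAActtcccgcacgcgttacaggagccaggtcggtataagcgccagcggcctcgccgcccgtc
CANX: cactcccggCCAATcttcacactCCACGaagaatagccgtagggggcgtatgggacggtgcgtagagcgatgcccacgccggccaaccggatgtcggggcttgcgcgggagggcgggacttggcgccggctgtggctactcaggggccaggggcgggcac
MKI67: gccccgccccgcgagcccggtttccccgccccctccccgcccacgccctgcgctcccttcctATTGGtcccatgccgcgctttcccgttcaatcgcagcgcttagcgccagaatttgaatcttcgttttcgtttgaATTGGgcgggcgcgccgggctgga
ASPM: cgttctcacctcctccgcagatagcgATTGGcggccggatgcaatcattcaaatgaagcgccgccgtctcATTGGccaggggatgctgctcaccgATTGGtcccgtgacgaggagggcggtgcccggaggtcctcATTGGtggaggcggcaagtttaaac
ASNS, chosen for its promoter after its values were seen, had 5.19, 5.24 and 6.06 CPM in KMT2D-WT and 5.95, 11.01, 10.4 and 9.90 CPM in KMT2D-KO libraries. The KO1 library of experiment 1 lay among the KMT2D-WT libraries, and the change of 0.80 ± 0.22 (adjusted p = 0.0193) lost its call with the close pairs summed (adjusted p = 0.159) and without any 1 of the 3 KMT2D-WT libraries or of the 2 KMT2D-KO libraries of experiment 2.

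Immediate early factors, which couple growth factor signals to transcription, and their feedback genes rose in part. Of 27 AP-1 and immediate early genes, 14 were higher and 3 lower (median 0.48, and 0.21 without the KMT2D-WT or 0.29 without the KO1 library of experiment 1). KLF4, a factor of epithelial differentiation and stress, had 12.7, 13.9 and 13.3 CPM in KMT2D-WT and 109.7, 180.3, 177 and 168 CPM in KMT2D-KO libraries (log2 3.60 ± 0.19; adjusted p = 4.33e-05), and KLF6 had 191 to 235 and 450.4 to 498 CPM (1.17 ± 0.07). The KO1 library of experiment 1 was the lowest KMT2D-KO library for both, yet far above KMT2D-WT. Among ligands and regulators of EGFR, 7 of 18 genes were higher and 4 lower. NRG1, a ligand of ERBB3, had 148, 155 and 146 and 527, 655, 601 and 611 CPM (2.00 ± 0.09), the feedback inhibitor ERRFI1 had 137, 159 and 155 and 287, 484, 536 and 530.5 CPM (1.65 ± 0.18), and the receptor gene ERBB2 was lower, with 174, 122 and 122 and 72.5, 98.2, 72.8 and 69.3 CPM (-0.88 ± 0.12). Of 20 ERK feedback genes, 7 were higher, such as the phosphatase gene DUSP10 (2.19 ± 0.14) and PHLDA1 (1.18 ± 0.07), and 5 were lower. Other receptor tyrosine kinases and ligands were higher in 14 and lower in 7 of 30 genes. FGFR4 had 4.29, 3.25 and 2.72 CPM in KMT2D-WT and 29.7, 28.8, 24.1 and 21.7 CPM in KMT2D-KO libraries (2.87 ± 0.11). TYRO3 rose by 1.497 ± 0.08, whereas GAS6, a ligand of TYRO3, AXL and MERTK, had 12.8, 7.25 and 7.51 and 0.188, 0.476, 0.223 and 0.117 CPM (-5.31 ± 0.26), so that receptor and ligand changed in opposite directions.

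Cytokines split as well, with 4 lower and 5 higher of 22, both below the background. IL6 had 6.94, 6.16 and 5.27 CPM in KMT2D-WT and 54.1, 39.2, 30.5 and 29.0 CPM in KMT2D-KO libraries (log2 2.52 ± 0.16), whereas LIF, of the same cytokine family, had 262, 201 and 195 and 102.4, 64.4, 49.9 and 46.8 CPM (-1.88 ± 0.17). No library overlapped for either gene. In the NF-kB list (8 lower and 7 higher of 26), the adhesion molecule ICAM1 had 269, 227 and 221 CPM in KMT2D-WT and 38.2, 45.8, 38.1 and 38.9 CPM in KMT2D-KO libraries (-2.59 ± 0.08; adjusted p = 2.76e-05). The inhibitors of apoptosis BIRC2 (-0.73 ± 0.07) and BIRC3 (-1.25 ± 0.08) were lower within each experiment but overlapped across experiments. In the apoptosis list, 13 of 43 genes were lower and 7 higher, among the former APAF1 of the apoptosome, with 17.9, 29.1 and 29.5 CPM in KMT2D-WT and 5.51, 7.67, 10.5 and 11.3 CPM in KMT2D-KO libraries (-1.43 ± 0.12). Interferon-stimulated genes were lower in 13 and higher in 5 of 38 genes (median -0.24). IFIT3 had 8.43 to 10.0 CPM in KMT2D-WT and 1.59 to 2.58 CPM in KMT2D-KO libraries (-2.04 ± 0.17), IFIT2 changed by -2.01 ± 0.17 and the factor IRF1 by -1.35 ± 0.11. Class I antigen presentation went the other way in 8 of 20 genes (4 lower), with HLA-B at 158 to 190.4 and 288 to 389 CPM (0.89 ± 0.07) and HLA-E at 108 to 125 and 205 to 241 CPM (0.90 ± 0.07).

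The epithelial program was described next, since the cells come from a squamous carcinoma. Of 15 expressed keratins, 9 were higher and none lower, and 7 were higher with the close pairs summed. Their median was 1.75, and 1.25 without the KO1 library of experiment 1. The simple epithelial keratins KRT8 and KRT18, which pair in filaments, rose together, KRT8 from 1966, 1664 and 1694 to 3337, 3303, 2837 and 2877 CPM (log2 0.76 ± 0.05) and KRT18 from 735, 557 and 568 to 1733, 1778, 1312 and 1339 CPM (1.24 ± 0.05). KRT80 had 22.2, 19.7 and 18.7 CPM in KMT2D-WT and 54.8, 83.0, 73.7 and 73.5 CPM in KMT2D-KO libraries (1.82 ± 0.16). The stress keratin KRT16 had 3.13, 1.93 and 1.65 and 9.70, 19.4, 11.99 and 9.08 CPM (2.41 ± 0.28), and the basal keratin KRT15 had 4.89, 4.46 and 3.96 and 25.5, 15.5, 12.1 and 12.5 CPM (1.75 ± 0.22). Each of these 5 keratins was above the KMT2D-WT range in all 4 KMT2D-KO libraries. The pair of basal keratins KRT5 and KRT14 did not move together. KRT5, named after its values were seen, had 21.6, 18.9 and 19.2 CPM in KMT2D-WT and 15.3, 212, 169 and 173 CPM in KMT2D-KO libraries, so that the KO1 library of experiment 1 lay below KMT2D-WT and the other 3 were about 8 to 11 times higher (log2 2.86 ± 0.79; adjusted p = 0.0207, and 0.151 with the close pairs summed). The call was lost also without any 1 library other than KO1 of experiment 1. KRT14 had 216, 179 and 186 and 134, 238, 162 and 168 CPM, and its value of -0.18 ± 0.18 did not pass the test (adjusted p = 0.447). KRT14 too was named after its values were seen.

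Squamous lineage markers were higher in 11 and lower in 3 of 23 genes, but in 3 and 2 with the close pairs summed. The lineage factor SOX2 was low in KMT2D-WT cells, with 1.33, 1.96 and 1.83 CPM, and had 2 reads over all KMT2D-KO libraries, a ratio of 72.3 with an exact counting interval from 19.7 to 602. P-cadherin, CDH3, rose by 0.67 ± 0.06. Of 10 expressed genes of epidermal differentiation, 6 were higher, among them LCN2, an iron-binding defence protein (0.896 to 1.93 against 14.8 to 25.2 CPM, 3.69 ± 0.25), and 2 lower, among them TGM1, which cross-links the cornified envelope (1.01 to 2.27 against 0.250 to 0.476 CPM, -2.25 ± 0.32). Of 10 membrane mucins and epithelial surface genes, 2 were lower and 3 higher, which is near the background. MUC16 had 8.53, 10.7 and 9.65 CPM in KMT2D-WT and 0, 0, 0.0892 and 0.0783 CPM in KMT2D-KO libraries (log2 -7.48 ± 0.37). MUC4 had 0.0429, 0.0864 and 0.172 and 0.188, 24.5, 27.99 and 27.7 CPM (7.77 ± 1.54), which was high in 3 KMT2D-KO libraries only, with the KO1 library of experiment 1 at the level of KMT2D-WT, and the call was lost with the close pairs summed (adjusted p = 0.0728).

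Genes of the mesenchymal transition list were higher in 14 and lower in 5 of 23 (median 0.80), but its best known members went opposite ways. TGFBI (chr5:136028988-136063818), a matrix protein induced by TGF-beta, had 41.1, 39.0 and 38.5 CPM in KMT2D-WT and 359, 373, 387 and 374 CPM in KMT2D-KO libraries (log2 3.24 ± 0.07; adjusted p = 1.21e-05). FN1 (chr2:215360440-215436073), fibronectin, had 543, 538 and 526 and 87.0, 111, 99.4 and 94.0 CPM (-2.46 ± 0.09; adjusted p = 3.11e-05). The 4 KMT2D-KO libraries agreed within 1.3-fold for both genes. SPARC rose by 1.60 ± 0.09 and COL1A1 by 1.33 ± 0.14. COL1A1 is also the only fibroblast marker of 10 that was expressed enough to be tested, with 2.96 to 5.23 and 6.73 to 13.83 CPM, and the endothelial marker CDH5 rose likewise (0.344 to 0.720 against 2.00 to 3.12 CPM). Their part in the change of this list was not tested. Hemidesmosome and basement membrane genes were called in 4 of 22 cases as lower and 3 as higher, fewer than the background, with ITGA3 (1376 to 1605 against 786 to 939.8 CPM, -0.77 ± 0.08) and COL17A1 (922 to 1138 against 502 to 754 CPM, -0.83 ± 0.11) among the lower ones. By overlap, however, all KMT2D-KO libraries lay below all KMT2D-WT libraries in 7 of the 22 and above them in 0, against 19.1% and 16.1% of all tested genes.

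Signalling receptors and ligands of development were also examined. In the Notch list (8 lower and 5 higher of 23), 3 receptors fell, NOTCH3 as given above, NOTCH1 from 55.8, 47.4 and 46.8 to 17.3, 27.5, 21.2 and 19.3 CPM (log2 -1.26 ± 0.15) and NOTCH2 from 209.8, 265 and 263 to 78.8, 119, 138 and 131 CPM (-1.02 ± 0.14). In the WNT list (13 lower and 6 higher of 35), the ligand WNT7B had 55.0, 43.6 and 44.1 CPM in KMT2D-WT and 5.07, 6.77, 6.06 and 6.07 CPM in KMT2D-KO libraries (-2.996 ± 0.13), and the secreted inhibitor DKK1 had 275, 312 and 314 and 614, 585, 637 and 624 CPM (1.06 ± 0.06). Ligand and inhibitor thus moved in opposite directions, each without overlap. NF2, merlin, an upstream component of the Hippo pathway, had 357, 245 and 249.7 and 103, 114, 65.9 and 65.2 CPM (-1.83 ± 0.07). Of 30 genes of neural adhesion and axon guidance, 9 were lower and 7 higher, including NTN1, netrin 1 (-2.62 ± 0.20), and its fellow guidance gene ROBO1, a receptor of SLIT ligands (3.91 ± 0.20).

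Among lists with at least 10 tested genes, the HOX genes, which record position along the body axis, had the lowest median. Of 28 expressed HOX genes, 18 were lower and 1 higher (median -0.86). With the close pairs summed, 5 of the 28 were lower, against 7.67% of all genes. HOXA5 had 3.69, 3.97 and 4.27 CPM in KMT2D-WT and 1.19, 1.59, 0.936 and 0.900 CPM in KMT2D-KO libraries (log2 -1.85 ± 0.23), and HOXD9 had 9.17, 7.25 and 7.72 and 1.44, 3.07, 2.41 and 2.90 CPM (-1.70 ± 0.25). HOXD10 fell by about 2-fold (-0.91 ± 0.12), with no overlap between genotypes. Protocadherins and related cadherins were lower in 8 and higher in 2 of 18 genes, with PCDHGC3 at 17.5 to 21.05 and 7.70 to 8.34 CPM (-1.25 ± 0.10). Of 33 Polycomb and DNA methylation genes, 14 were lower and 4 higher, and 4 and 1 with the close pairs summed. SUZ12, a core subunit of the H3K27 methyltransferase PRC2, had 53.6, 137 and 139 and 19.1, 24.7, 51.8 and 52.6 CPM (-1.36 ± 0.10), CBX6 of PRC1 fell by 1.62 on the log2 scale, and RNF2, the catalytic subunit of PRC1, had 11.7, 22.2 and 20.7 and 25.7, 24.3, 44.98 and 44.3 CPM (1.07 ± 0.07). Subunits of complexes that methylate H3K4 were mostly not called (3 lower and 2 higher of 21, both below the background). KDM6A, the partner of KMT2D that removes methyl groups from H3K27, had 20.3, 27.6 and 25.8 and 26.5, 55.2, 77.1 and 74.3 CPM (1.31 ± 0.25), with the KO1 library of experiment 1 inside the range of KMT2D-WT, and the call was lost with the close pairs summed (adjusted p = 0.0778). Demethylases were lower in 4 and higher in 0 of 16 genes, a share of lower genes close to the background, and 0 were lower with the close pairs summed. KDM3B was one of them (-0.99 ± 0.19; adjusted p = 0.0621 with the close pairs summed and 0.0533 with experiment 1's KMT2D-WT library left out).

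Genes of mitosis were lower. Of 65 G2/M and mitosis genes, 38 were lower and 6 higher (median -0.43), and with the close pairs summed 13 were lower and 1 higher. ASPM, a spindle pole protein, had 81.5, 252 and 242 CPM in KMT2D-WT and 34.8, 33.5, 93.0 and 95.1 CPM in KMT2D-KO libraries (log2 -1.34 ± 0.07). CENPE, a kinetochore motor, had 49.7, 167 and 165 and 23.2, 23.9, 90.8 and 85.2 CPM (-0.98 ± 0.07). Both were lower in experiment 1 than in experiment 2 in either genotype, and KMT2D-KO lay below KMT2D-WT within each experiment. INCENP of the chromosomal passenger complex had 245, 169 and 176 and 122, 111, 74.5 and 73.1 CPM (-1.17 ± 0.07). Of 47 genes of S phase and replication, 13 were lower and 6 higher (median -0.04), a share of lower genes close to that over all genes. Of 75 centrosome and cilium genes, 34 were lower and 2 higher (median -0.33), and 12 and 0 with the close pairs summed. Among the lower ones were the centrosome proteins NIN (171 to 217 against 80.4 to 108 CPM, -1.04 ± 0.06) and CEP192 (-1.22 ± 0.08), and the kinesin gene KIF3A of ciliary transport (-1.26 ± 0.09). The median exonic length was 4517 bases in the G2/M list and 7291 bases in the centrosome list, against 3208 bases for ribosomal proteins.

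Exonic length moved with the result over all genes. In the 10% of tested genes that were shortest (59 to 893 bases), 7.74% were lower and 30.4% higher, with a median log2 fold change of 0.42, and in the 10% that were longest (10366 to 205012 bases), 35.4% were lower and 19.8% higher, with a median of -0.19. KMT2D-WT libraries also differed by experiment. Relative to the mean of the 3 KMT2D-WT libraries, the longest genes of experiment 1 lay at -0.16 in KMT2D-WT and at -0.53 and -0.33 in KMT2D-KO libraries, and those of experiment 2 at 0.09 and 0.07 in KMT2D-WT and at -0.05 and -0.06 in KMT2D-KO libraries. The shortest genes lay at -0.11 in KMT2D-WT and 0.04 and 0.04 in KMT2D-KO libraries of experiment 1, and at 0.06 and 0.07 in KMT2D-WT and 0.32 and 0.36 in KMT2D-KO libraries of experiment 2. Within each experiment, KMT2D-KO libraries were thus below KMT2D-WT in the longest and above it in the shortest genes. With an offset that removes the trend in length from each library, 3838 genes were lower and 4808 higher. Under this offset, the median was -0.37 for the G2/M list, -0.24 for the centrosome list, 0.94 for the cytosolic ribosomal proteins, -0.78 for the HOX genes and 0.87 for the ATF4 list, and 0.05 over all genes. For the HECT and large RING ubiquitin ligases, long genes of which 11 of 27 were lower, it went from -0.30 to -0.13. The part of RNA quality in these differences was not tested.

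**Figure D3:**
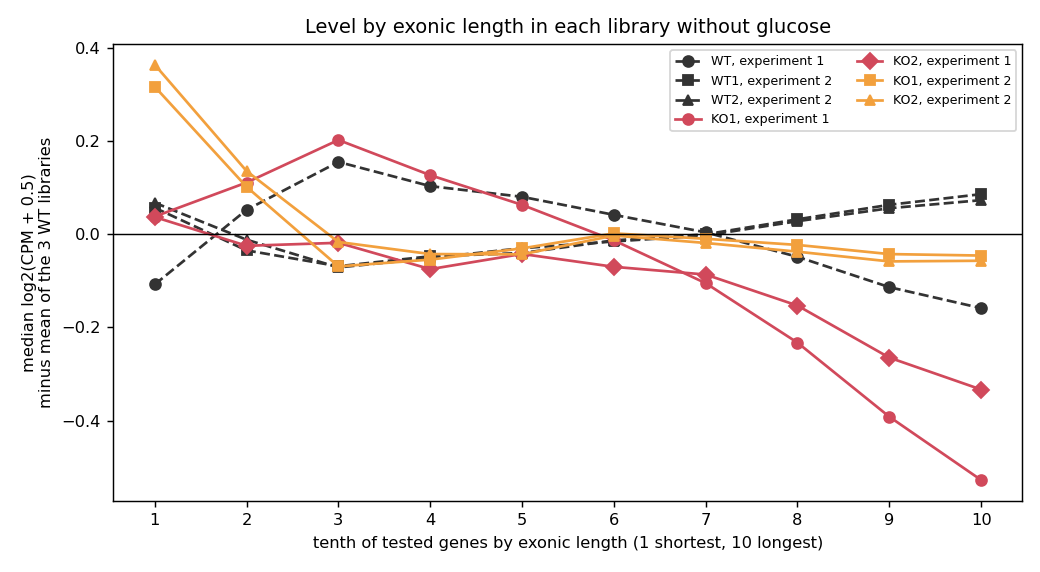
Median level of genes in each of 10 equal classes of exonic length, as log2(CPM + 0.5) minus the mean of the 3 KMT2D-WT libraries, with 1 line per library. The KMT2D-KO libraries of experiment 1 (red) fall to -0.53 and -0.33 in the longest class, those of experiment 2 (orange) rise to 0.32 and 0.36 in the shortest class, and the KMT2D-WT libraries (black, dashed) stay between -0.16 and 0.15.

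The position of genes on the chromosomes also moved with the result. On chromosome 22, 198 of 392 tested genes (50.5%) were lower and 59 (15.1%) higher, against 24.9% and 25.9% over all genes, with a median log2 fold change of -0.51. The next lowest medians were -0.21 on chromosome 14 and -0.19 on chromosome 7, and the highest were 0.27 on chromosome X, 0.25 on chromosome 8 and 0.24 on chromosome 20. Chromosome 22 thus stood apart from all others in the share of lower genes. In windows of 20 Mb with at least 30 tested genes, of which there were 152, the median was below -0.4 in 11 and above 0.4 in 8. The lowest was chr22:20000001-40000000, where 155 of 233 genes were lower and 23 higher (median -0.87). There, the median genes of the KMT2D-KO libraries lay -0.60, -0.61, -0.82 and -0.83 from the mean of KMT2D-WT on the log2 scale, and in cells kept in glucose the median fold change was -0.83. The highest was chr20:1-20000000, with 62 of 112 genes higher and 7 lower (median 0.69, and 0.51 in glucose), followed by chr5:160000001-180000000 with 62 of 111 higher (median 0.64). In these 3 windows, all 4 KMT2D-KO libraries lay on the same side of all KMT2D-WT libraries by the median gene, and the median had the same sign in glucose. Of the genes described above, DDX17, NF2, LIF, HMOX1, CBX6 and ATF4 start in the window of chromosome 22, and all but ATF4 were lower. WNT7B lies farther along chromosome 22, IDH3B in the window of chromosome 20, and CANX, NPM1, NOP16 and FGFR4 in that of chromosome 5. The part of position in their changes was not tested.

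**Figure D4:**
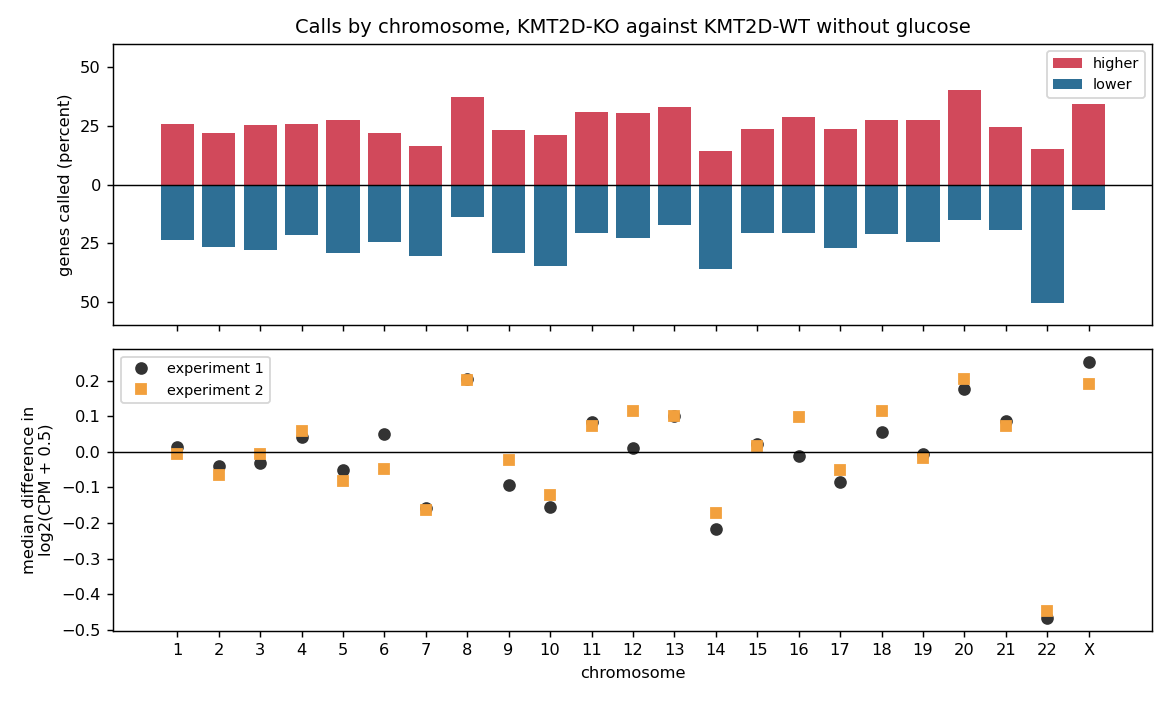
Upper panel, percent of tested genes called higher (red, upwards) and lower (blue, downwards) by chromosome; lower panel, median difference in log2(CPM + 0.5) between KMT2D-KO and KMT2D-WT within experiment 1 and within experiment 2. Chromosome 22 has the largest share of lower genes, 50.5%, and its median is -0.47 in experiment 1 and -0.45 in experiment 2.

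Whether the effect of KMT2D-KO differed from that in cells kept in glucose was tested in all 14 libraries. By the genes that separate the lines, the -Glc library labelled KO1 of experiment 2 lay with KO2. The mix of lines therefore differed between glucose conditions, and its part in the differences given here and below was not tested. Of 18678 genes, 1221 (6.54%) had a lower effect without glucose and 884 (4.73%) a higher effect, by the interaction of genotype and glucose in edgeR at an adjusted p under 0.05. These counts rested on single libraries. Without the KO1 library of experiment 1 in -Glc they were 2093 and 2137, without any 1 of the 3 -Glc KMT2D-WT libraries 470.0 to 640.0 and 302 to 318, without any 1 of the 3 +Glc KMT2D-WT libraries 566 to 754 and 335 to 492, and without the -Glc library labelled KO1 or KO2 of experiment 2 656 or 666 and 349 or 350.0. Without the +Glc library labelled KO1 of experiment 2 there were 549 genes with a higher effect. The offset for length gave 1063 and 1766. Of the cytosolic ribosomal proteins, 28 had a higher effect without glucose and none a lower one, and of the AP-1 and immediate early list 9 and 2. Of the HOX genes, 10 had a lower effect and none a higher one, and of the G2/M list 7 and none. Of the keratins and of the ATF4 list, 6 and 6 had a higher effect and none a lower one.

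Several stress and signal genes were different between genotypes mainly when glucose was absent. PPP1R15A had a fold change of -0.54 with and 1.63 without glucose (difference 2.19; edgeR, adjusted p = 6.9e-05). IL6 had 0.26 and 2.52 (difference 2.28; adjusted p = 0.000352), GADD45A -0.05 and 1.55 (1.63; 0.000162), and DKK1 -0.35 and 1.06 (1.43; 8.07e-06). Each of these genes was within 0.6 of no change with glucose and rose without it. MYC and ATF3 were higher in both conditions, MYC by 0.81 and 2.12 and ATF3 by 0.55 and 2.06, with a larger effect without glucose (adjusted p = 4.49e-05 and 0.000277). HOXA5 had -0.04 with and -1.85 without glucose (difference -1.79; adjusted p = 0.00919). For TGFBI (2.96 and 3.24), GALNT14 (9.32 and 9.43), ICAM1 (-3.03 and -2.59) and DSCAM, the difference between conditions did not pass the test (adjusted p = 0.425, 0.945, 0.159 and 0.396). FN1 was lower in both, but less so without glucose (-3.18 and -2.46; adjusted p = 0.0171).

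**Figure D5:**
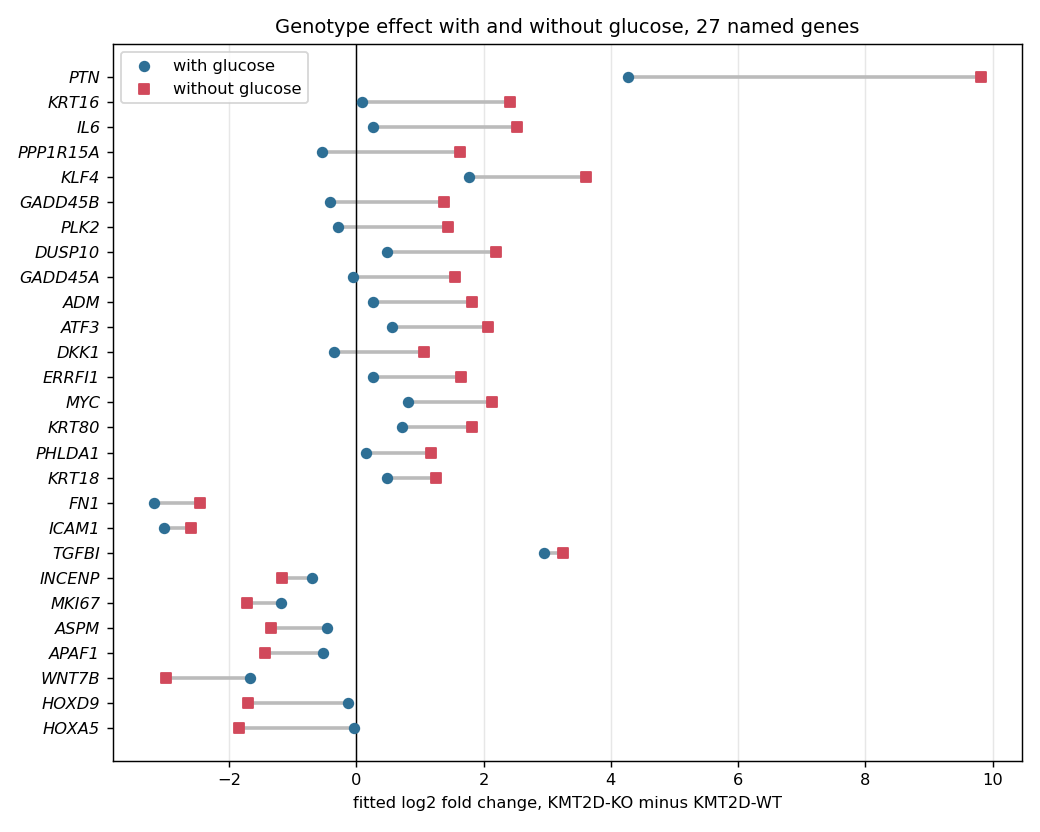
Fitted log2 fold change of KMT2D-KO against KMT2D-WT in 27 named genes, with glucose (blue circles, from the fit of 14 libraries) and without glucose (red squares, from the fit of 7 libraries), ordered by the difference between conditions. PPP1R15A goes from -0.54 to 1.63 and HOXA5 from -0.04 to -1.85, whereas TGFBI has 2.96 and 3.24.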

How the data were processed

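RNA-seq of polyadenylated RNA from SCC23 cells was analysed in 7 libraries without glucose, and in all 14 for the interaction. Per the labels and the file headers, the deposited values are whole-number counts of reads per gene name, made by the authors with HISAT2 alignment to GRCh38 and featureCounts 2.0.3 with the Ensembl 102 annotation, without strand. Overlapping and antisense genes can therefore share reads, and for 4 libraries with glucose both mates of a pair were counted. Groups were taken from the sample titles.

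From 59471 gene names, 34371 had a count and 16782 passed filterByExpr (minimum count 10). Genes were tested with edgeR 4.0.16 (R 4.3.3) by the quasi-likelihood test, with TMM factors, experiment as a covariate and a Benjamini-Hochberg adjusted p under 0.05. Differences between experiments correlated over genes between KMT2D-WT and KMT2D-KO (0.854), which is the pairing that the covariate takes up. The scripts were tested on simulated data. Total counts were 18096785 to 31074996, and counting intervals cover counting error only. Alternatives were DESeq2 1.42.0, no covariate, other size factors and filters, an offset for length (loess, span 0.3), summed close pairs and each library left out in turn.

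The genes and lists were chosen with earlier results of these data known. Named were KMT2D, the 10 largest decreases and increases among genes called in both fits with at least 5 CPM and no overlap, the 5 most abundant genes changed by 2-fold in each direction, and per list up to 4 called genes with the smallest adjusted p and up to 2 defining genes that were not called. Lists were described by counts and medians, with no set test. Some genes that this rule names are not reported here. Guide sequences were not used here.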

Additional observations from a re-analysis of the deposited data

Results flagged for a closer look

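Single libraries stood apart from the other 3 KMT2D-KO libraries without glucose in 14 of the 140 genes described, by a test of the gap between the extreme library and its neighbour. Chance flags about 1 in 20 groups of independent libraries, but the 2 KMT2D-KO libraries of experiment 2 are a close pair and levels are not adjusted for experiment, so that this rate does not hold here. The library was KO1 or KO2 of experiment 1 in each case. The KO1 library was high for NOTCH3 (3.44 CPM), ENO1 (3433 CPM), COL17A1 (754 CPM), HOXD10 (13.96 CPM) and NTN1 (8.95 CPM), and low for DDX17 (367 CPM), AHNAK (112 CPM), KLF4 (109.7 CPM) and MUC4 (0.188 CPM). The KO2 library was high for ACTG1 (11185 CPM), PPP1R15A (892 CPM), ERBB2 (98.2 CPM), ICAM1 (45.8 CPM) and LCN2 (25.2 CPM). For MUC4 the other 3 libraries had 24.5 to 27.99 CPM, so that 1 library lacked the change, and for the other genes all 4 KMT2D-KO libraries lay on one side of KMT2D-WT.

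Between conditions, the effect of KMT2D-KO (without minus with glucose) differed by the interaction test (edgeR, adjusted p under 0.05) in 64 of the 140 genes, of which 49 had a higher and 15 a lower effect without glucose, against 4.73% and 6.54% over all genes. The genes described were chosen by their change without glucose, so that their share cannot be read against the background. On the log2 scale, the differences of 1 or more were PTN (5.73), AC037198.1 (4.11), KRT16 (2.34), IL6 (2.28), PPP1R15A (2.19), KLF4 (1.85), GADD45B (1.81), PLK2 (1.75), DUSP10 (1.72), GADD45A (1.63), KRT14 (1.59), ADM (1.57), ATF3 (1.53), CCBE1 (1.53), MT-RNR2 (1.46), DKK1 (1.43), ERRFI1 (1.41), MYC (1.34), KDM6A (1.14), KRT80 (1.12) and PHLDA1 (1.04). Smaller positive differences were ZFAS1 (0.93), MT-ND4 (0.82), KRT18 (0.78), SESN2 (0.77), TYRO3 (0.76), NRG1 (0.76), FN1 (0.74), FGFR4 (0.73), KRT8 (0.72), KLF6 (0.70), RNF2 (0.65), RPL13A (0.63), POLR1D (0.62), SLC3A2 (0.61), HLA-E (0.59), TKT (0.57), EIF4EBP1 (0.56), SNHG29 (0.56), CDH3 (0.54), RPL8 (0.51), RPL11 (0.51), MRPS30 (0.49), TARS1 (0.49), MCM4 (0.49), HLA-B (0.49), PGD (0.45), RACK1 (0.45) and IDH3B (0.44). Negative differences were HOXA5 (-1.79), TGM1 (-1.68), HOXD9 (-1.54), WNT7B (-1.31), CELSR2 (-1.16), HOXD10 (-0.91), APAF1 (-0.88), ASPM (-0.86), NOTCH2 (-0.85), CBX6 (-0.83), CEP192 (-0.67), BIRC2 (-0.62), MKI67 (-0.51), INCENP (-0.44) and DDX17 (-0.39). As given above, the number of such genes over the transcriptome rested on single libraries, and the mix of lines differed between glucose conditions.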

How the results depend on the processing

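The number of genes called depended on the processing far more than the direction of the genes described. Without experiment as a covariate, that is with no replicate block, 1953 genes were lower and 1706 higher, and the effect differed between glucose conditions in 50 genes as lower and in 20 as higher. DESeq2 without a covariate called 2274 lower and 2547 higher, and the close pairs summed gave 1287 and 1490. A limit of 1.5-fold left 2804 genes higher, and the offset for length gave 1766 genes with a higher effect without glucose. Leaving out 1 library at a time gave 2926 to 6312 genes lower and 3105 to 6136 higher, and 470 to 2093 and 302 to 2137 genes with a lower or higher effect without glucose. No gene described changed direction under any alternative run. Most of these genes were chosen by their calls in the same libraries, so a stable direction is no independent support. Beside the calls lost that are named above, ASNS, BIRC2, BIRC3, RNF2, ASPM and CENPE were not called without the covariate, and BIRC2 and CENPE were not called by DESeq2 without it. KMT2D was called without the KO1 library of experiment 1 (-0.58) and without a filter on low counts (-0.89), and CHAC1 under 6 alternatives. Of 40 lists with a median beyond 0.2 in size, none changed sign under an alternative that gave a value, and the immune list had no gene left under the filter of at least 1 CPM in 3 libraries. Among all 63 lists, 6 changed sign without the -Glc KMT2D-WT library of experiment 1, the most under any alternative. The causes were not tested. Depth limits genes near 0 in one genotype, whose fitted fold changes are imprecise in size.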
